A study of Homo sapiens with 10 samples.

Results

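The response to R5020 was compared between T47D breast cancer cells with a SUMOylation-deficient progesterone receptor A (PR-A K388R) and cells with wild-type (WT) PR-A. The quantity is a difference of differences: the change with R5020 in PR-A K388R cells minus the change with R5020 in WT PR-A cells, on the log2 scale. A negative difference means that the response of PR-A K388R cells was less positive than that of WT PR-A cells. It uses 8 of the 10 Affymetrix U133 Plus 2 arrays of the series, 2 in each of 4 groups. These are PR-A K388R cells with R5020, PR-A K388R cells with vehicle, WT PR-A cells with R5020 and WT PR-A cells with vehicle. Treatment lasted 24 h, with the synthetic progestin R5020 at 10 nM or with ethanol as the vehicle. Both lines were made by stable transfection of T47D-Y, a PR-negative derivative of T47D, with a PR-A expression vector. The other 2 arrays are vehicle-treated T47D-Y cells, which do not enter the difference itself. They enter the model, where they share in the spread behind each p-value, and they describe the level without PR. Each receptor is represented by 1 line, so the mutation and other differences between both lines cannot be told apart. Replicates are numbered 1 and 2 in the labels, with no word on whether each was its own culture, and the spread behind each p-value is that of these arrays, which may be technical.

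PR is a ligand-activated transcription factor, and PR-A is the shorter of its isoforms. SUMO is a small protein that is coupled to lysines of other proteins, and in many transcription factors SUMOylation lowers activity at promoters with several binding sites. K388 is the lysine of PR to which SUMO is attached, and its exchange for arginine removes that site. Bound to progestin, PR binds progesterone response elements, palindromes of a hexamer, and also acts at sites of other factors such as AP-1.

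Depth on an array is set by signal over background, and the lowest values are close to it. The mean lower quartile of the 8 arrays was 3.34 (log2 signal). A probe set with a group mean under 3.84, which is 0.5 above it, was set aside as near the lower quartile. Of 12547 probe sets with 1 gene symbol, which stand for 8904 genes, 4286 (34.2%) were near it. Array medians lay between 4.59 and 4.69. Luminal epithelial markers had group medians of 11.3 to 11.7 over 7 genes in the 4 groups, while leukocyte and endothelial markers had medians of 3.57 to 3.85 over 4 and 6 genes. Basal and fibroblast markers had medians of 4.32 to 4.72 over 5 and 7 genes, but single members were higher. The highest basal marker of a group read 7.58 to 8.26. The highest fibroblast marker read 6.45 with R5020 and 7.56 with vehicle in PR-A K388R cells, against 8.43 with R5020 and 9.46 with vehicle in WT PR-A cells. In RNA from whole cultures, a lower signal in every cell and fewer cells with the signal cannot be told apart. The receptor gene itself, PGR, is represented by 0 probe sets among those used here.

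Promoters of the genes that responded less in PR-A K388R cells were searched for the palindromic response element, its hexamer and the AP-1 site. The promoters, 250 bases before to 50 bases after each start site, are from RefSeq (GRCh38.p14). The element, read as GNACA, any 3 bases and TGTNC on either strand, was in 0 of 160 promoters of the genes whose rise was lost or weakened (97 of 116 genes had a promoter in the table), and in 0.39% of all 35116 promoters of the table. The hexamer, AGAACA on either strand, was in 14 of these 160 promoters (8.75%), against 14.8% of all promoters and 12.1% of those of the measured genes. The AP-1 site, TGANTCA, was in 13 of them (8.12%), against 7.71% of all promoters and 6.55% of those of the measured genes. In the 69 promoters of lost or weakened falls the element was in 0, the hexamer in 7 and the AP-1 site in 7 (10.1% each). Kept rises, defined below, had 19 promoters from 11 genes, with the element in 0, the hexamer in 5 (26.3%) and the AP-1 site in 1 (5.26%). In the 14 promoters of stronger and new rises, also defined below, the element was in 0, the hexamer in 1 and the AP-1 site in 1 (7.14% each). A match describes these letters only, and the shares were not tested. Promoters of 3 genes described below are shown as examples of the hexamer and the AP-1 site, without the 50 bases after the start, with the motif in capitals. They are RASSF2 (chr20:4815148-4815397, minus strand, hexamer from 64 bases before the start), GJA1 (chr6:121435396-121435645, plus strand, AP-1 site from 48 bases before the start) and HDAC9 (chr7:18495499-18495748, plus strand, the first of 5 start sites listed, hexamer on the other strand, read TGTTCT, from 102 and AP-1 site from 67 bases before the start). The starts shown for RASSF2 and HDAC9 lie inside the span of the gene and are not its outermost start.
RASSF2: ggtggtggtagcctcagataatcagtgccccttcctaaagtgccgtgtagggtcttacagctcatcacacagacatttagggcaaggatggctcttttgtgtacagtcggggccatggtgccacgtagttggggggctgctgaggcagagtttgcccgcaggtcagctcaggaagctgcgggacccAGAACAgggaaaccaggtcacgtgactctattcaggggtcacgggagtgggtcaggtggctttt
GJA1: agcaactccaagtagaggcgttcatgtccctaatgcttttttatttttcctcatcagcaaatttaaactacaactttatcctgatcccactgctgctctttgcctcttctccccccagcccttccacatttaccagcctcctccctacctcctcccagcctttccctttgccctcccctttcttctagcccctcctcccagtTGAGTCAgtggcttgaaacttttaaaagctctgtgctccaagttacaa
HDAC9: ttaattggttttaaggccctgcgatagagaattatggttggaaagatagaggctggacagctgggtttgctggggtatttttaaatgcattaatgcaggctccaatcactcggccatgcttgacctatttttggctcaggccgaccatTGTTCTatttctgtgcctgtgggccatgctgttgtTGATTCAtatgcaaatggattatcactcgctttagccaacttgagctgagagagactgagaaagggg

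The response to R5020 differed between both lines for 214 of the 12547 probe sets (1.71%), which stand for 191 genes. A probe set was called at a Benjamini-Hochberg adjusted p under 0.05 from limma and a fold of at least 1.5 (0.58 on the log2 scale). The difference was higher in PR-A K388R cells for 75 probe sets (0.598%) and lower for 139 (1.11%). Called differences ranged in size from 0.74 to 3.78 on the log2 scale. Of the 214, 27 (12.6%) were near the lower quartile. The 95% interval of a difference reached 0.42 to either side in the median, so that differences close to the fold threshold were often not decided. With unmoderated contrasts of an analysis of variance 0 probe sets passed (smallest adjusted p = 0.0628), while 612 had an unadjusted p under 0.05 at this fold, against 859 with limma. With the T47D-Y arrays left out of the model 139 were called, and 82 of the 214 were not among them. Leaving out 1 array left 61 to 145 called probe sets. Of 75 named genes with a called difference, 23 were called in each of these 8 fits. With lower differences these were FCGR3B, MRAS, PPL, ADARB1, DNAJB4, CORO2A, FOXO1, MT1H, MT1X, ALDH1A3, GJA1, ANXA1, TRAF5, S100P, CEBPD and PLLP, and with higher ones FRY, C3orf52, SOX11, ASB9, KIAA0513, PRKAR2B and F8.

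Most called differences were responses of WT PR-A cells that were under 1.5-fold in PR-A K388R cells. R5020 changed 204 probe sets in PR-A K388R cells (1.63%), of which 149 rose (1.19%) and 55 fell (0.438%), and 938 in WT PR-A cells (7.48%), of which 534 rose (4.26%) and 404 fell (3.22%). A response was counted as lost where it was called in WT PR-A cells and was under 1.5-fold in PR-A K388R cells, and as weakened where it was at least 1.5-fold there but smaller. Lost were 116 rises (103 genes) and 44 falls (40 genes), and weakened were 17 rises (15 genes) and 7 falls (6 genes). New responses, called in PR-A K388R cells and under 1.5-fold in WT PR-A cells, were 10 rises and 1 fall, and 1 rise was stronger in PR-A K388R cells. Responses of opposite sign were 2, and 16 called differences could not be sorted because neither response was called. Lost rises had a median response of 0.12 in PR-A K388R cells, against 1.43 in WT PR-A cells. For weakened rises it was 0.92 in PR-A K388R cells, against 2.43 in WT PR-A cells. In 74 of the 116 lost rises and 35 of the 44 lost falls, the 95% interval of the PR-A K388R response lay within 1.5-fold of no change. For the others the interval reached 1.5-fold or more. Some of these intervals lay above 0, such as that of the lost rise of ALDH1A3 (0.26 to 0.90), so lost does not mean absent.

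**Figure D1:**
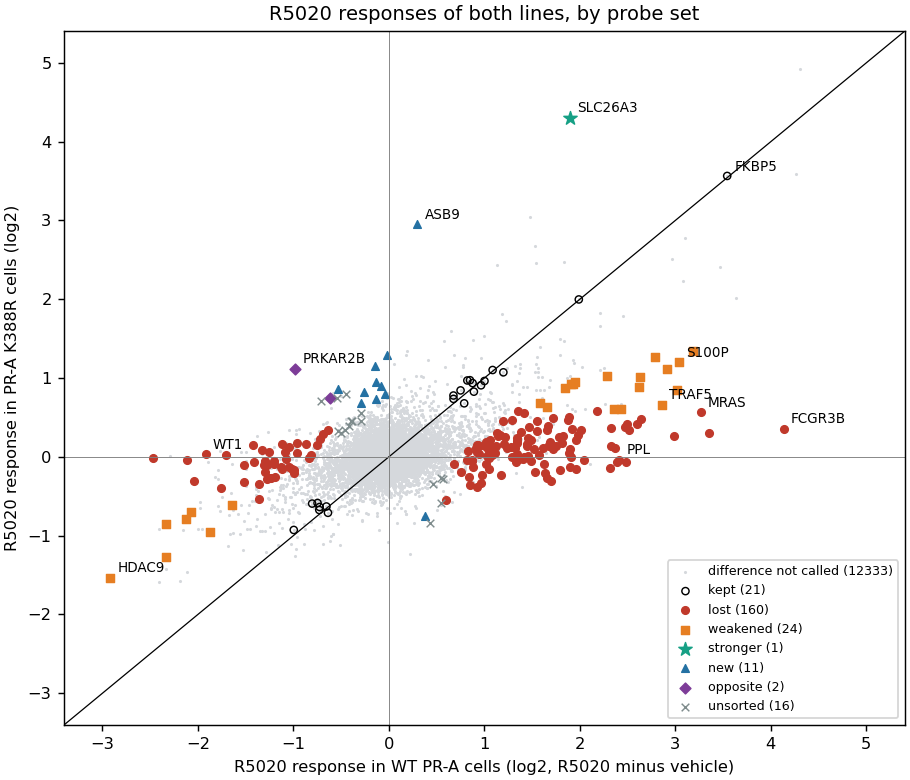
R5020 response of each probe set with 1 gene symbol in PR-A K388R cells (vertical, log2, R5020 minus vehicle) against WT PR-A cells (horizontal), with equal responses on the diagonal and symbols for the class of the difference. The 160 lost responses lie within 1.5-fold of the horizontal line at 0, FKBP5 lies on the diagonal, and ASB9 and SLC26A3 lie above it.

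Many responses of WT PR-A cells were neither shown to differ nor shown to be alike. Of its 534 rises, 134 (25.1%) had a called difference, the interval of 23 lay within 1.5-fold of no difference, and 377 (70.6%) were undetermined. Of its 404 falls, 53 (13.1%) had a called difference, 13 had an interval within 1.5-fold, and 338 (83.7%) were undetermined. Of the 149 rises of PR-A K388R cells, 28 (18.8%) had a called difference, 13 of them smaller and 15 larger in WT PR-A cells. The medians of these 149 were 0.94 in PR-A K388R cells, against 1.01 in WT PR-A cells. For the 534 rises of WT PR-A cells the medians were 0.28 in PR-A K388R cells, against 1.01 in WT PR-A cells. For its 404 falls they were -0.26 in PR-A K388R cells, against -0.86 in WT PR-A cells. Each set was chosen by a call in its own line, which favours large values there.

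The lost rises described here had high signals on the R5020 arrays of WT PR-A cells and not on those of PR-A K388R cells. FCGR3B, a low-affinity receptor for the Fc part of IgG, read 4.51 and 3.96 with R5020 and 3.77 and 3.98 with vehicle in PR-A K388R cells, against 7.66 and 8.31 with R5020 and 4.03 and 3.68 with vehicle in WT PR-A cells. Only its WT PR-A R5020 arrays stood apart from the other 6 (difference -3.78, SE 0.34, adjusted p = 0.00197). Its probes may not distinguish it from the near-identical FCGR3A. MRAS, a Ras-related GTPase, read 5.30 and 6.04 with R5020 and 5.11 and 5.10 with vehicle in PR-A K388R cells, against 8.38 and 8.39 with R5020 and 5.19 and 5.05 with vehicle in WT PR-A cells. Here too only the WT PR-A R5020 arrays were high (-2.70, SE 0.34, adjusted p = 0.00704). The interval of the PR-A K388R response of MRAS, 0.03 to 1.10, held positive values only, but this response was not called (limma, adjusted p = 0.426). A small rise of MRAS in PR-A K388R cells was therefore neither called nor excluded. FOXO1, a forkhead factor that progestins induce in the endometrium, read 5.96 and 6.22 with R5020 and 5.91 and 5.73 with vehicle in PR-A K388R cells, against 7.84 and 7.88 with R5020 and 5.96 and 5.80 with vehicle in WT PR-A cells. The 2 WT PR-A R5020 arrays were again the only high ones (-1.71, SE 0.18, adjusted p = 0.00463). Its second probe set had a difference of -0.54 that was not called.

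Other lost rises combined a level that was lower with R5020 in PR-A K388R cells and a level that differed with vehicle. DNAJB4, a co-chaperone of Hsp70, read 5.27 and 5.72 with R5020 and 5.18 and 4.97 with vehicle in PR-A K388R cells, against 8.55 and 8.38 with R5020 and 5.87 and 5.87 with vehicle in WT PR-A cells. The WT PR-A arrays were higher in both conditions, and the difference was -2.18 (SE 0.22, adjusted p = 0.00428), with -2.10 for its second probe set, also called. PPL, periplakin, which links desmosomes to keratin filaments, read 9.85 and 9.68 with R5020 and 9.69 and 9.91 with vehicle in PR-A K388R cells, against 11.54 and 11.35 with R5020 and 9.13 and 8.95 with vehicle in WT PR-A cells. The WT PR-A arrays lay above the PR-A K388R arrays with R5020 and below them with vehicle (-2.45, SE 0.21, adjusted p = 0.00197). ADARB1, an enzyme that edits adenosines in double-stranded RNA, read 6.18 and 6.28 with R5020 and 6.06 and 6.13 with vehicle in PR-A K388R cells, against 6.97 and 6.74 with R5020 and 4.59 and 4.48 with vehicle in WT PR-A cells. Its largest gap was with vehicle, where WT PR-A cells were low (1.56, PR-A K388R minus WT PR-A), and the difference of the responses was -2.19 (SE 0.18, adjusted p = 0.00197). CORO2A, a coronin, had the same order, with 7.29 and 7.35 with R5020 and 7.59 and 7.39 with vehicle in PR-A K388R cells, against 7.90 and 8.18 with R5020 and 6.36 and 6.13 with vehicle in WT PR-A cells. Its difference was -1.96 (SE 0.20, adjusted p = 0.00428), and the T47D-Y arrays (7.67 and 7.77) lay nearest to PR-A K388R cells with vehicle.

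The rises of RASSF2 and RASGRP1 were lost as well. RASSF2, a Ras association domain protein, read 4.60 and 4.98 with R5020 and 4.65 and 4.34 with vehicle in PR-A K388R cells, against 7.06 and 7.99 with R5020 and 4.45 and 3.89 with vehicle in WT PR-A cells. The groups with R5020 did not overlap, and the difference was -3.06 (SE 0.43, adjusted p = 0.0115). The call was lost without WT PR-A vehicle replicate 2, PR-A K388R vehicle replicate 1 or PR-A K388R R5020 replicate 1 (adjusted p = 0.0550, 0.0564 and 0.0603). RASGRP1, an exchange factor that activates Ras, had a difference of -2.46 (adjusted p = 0.0115) and was near the lower quartile in each group but WT PR-A cells with R5020. Its call held in 4 of the 8 fits. RAPGEF5, an exchange factor for Rap, had the opposite sign, 1.08.

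**Figure D2:**
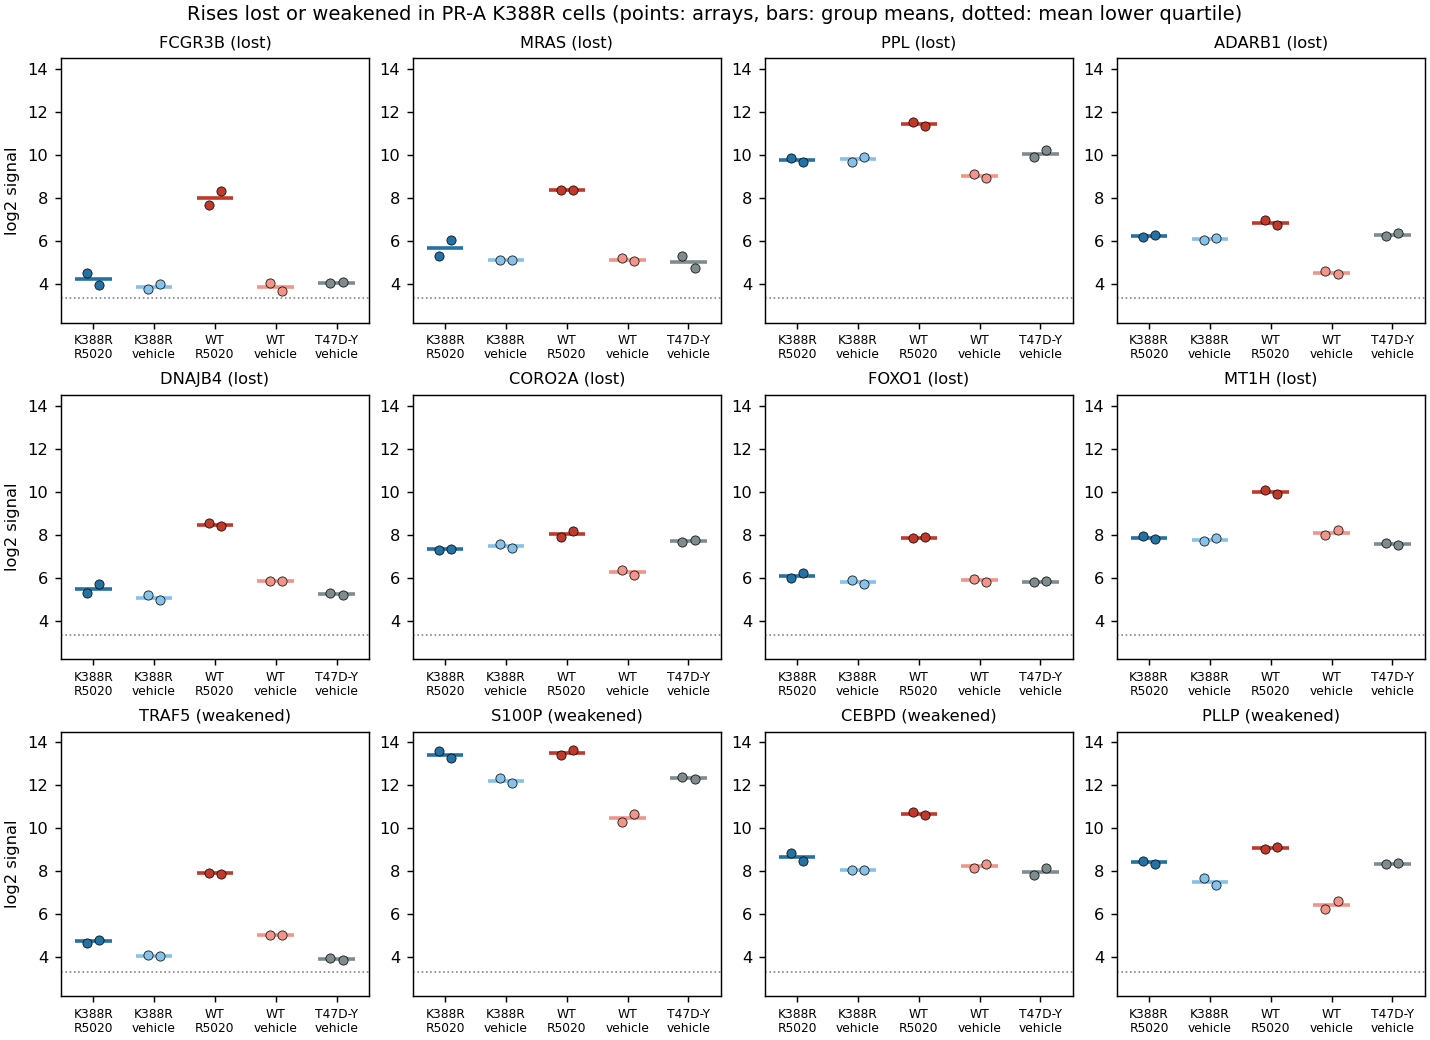
Log2 signal on each array for 12 genes whose rise with R5020 was lost or weakened in PR-A K388R cells, with points for arrays, bars for group means and a dotted line at the mean lower quartile (3.34). For FCGR3B, MRAS and FOXO1 only the WT PR-A R5020 arrays are high, while ADARB1, CORO2A, S100P and PLLP have low WT PR-A vehicle arrays.

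Weakened rises were smaller in PR-A K388R cells but at least 1.5-fold there, and the response of that line was not always called. TRAF5, an adaptor of tumour necrosis factor receptors, read 4.66 and 4.83 with R5020 and 4.10 and 4.07 with vehicle in PR-A K388R cells, against 7.94 and 7.87 with R5020 and 5.05 and 5.03 with vehicle in WT PR-A cells. The arrays of each line separated by treatment, by 0.66 in PR-A K388R cells (adjusted p = 0.0215) and 2.86 in WT PR-A cells, and the difference was -2.20 (SE 0.16, adjusted p = 0.00168). A second TRAF5 probe set, near the lower quartile, had a difference of -0.05 that was not called. S100P, a calcium-binding protein, read 13.57 and 13.26 with R5020 and 12.33 and 12.11 with vehicle in PR-A K388R cells, against 13.41 and 13.62 with R5020 and 10.28 and 10.67 with vehicle in WT PR-A cells. The lines overlapped with R5020 and were apart with vehicle, so its difference of -1.84 (SE 0.24, adjusted p = 0.00723) lay in the vehicle arrays. PLLP, the membrane protein plasmolipin, had responses of 0.89 in PR-A K388R cells and 2.62 in WT PR-A cells, a difference of -1.74 (adjusted p = 0.00723), and it too was lowest in WT PR-A cells with vehicle (6.26 and 6.64). CEBPD, a transcription factor that hormones and inflammation induce, read 8.84 and 8.49 with R5020 and 8.05 and 8.07 with vehicle in PR-A K388R cells, against 10.76 and 10.61 with R5020 and 8.15 and 8.34 with vehicle in WT PR-A cells. Its lines overlapped on no R5020 array and lay close with vehicle (difference -1.83, SE 0.22, adjusted p = 0.00651). The PR-A K388R response of CEBPD, 0.60, was not called.

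Further weakened rises were called less firmly. PMAIP1, a pro-apoptotic BH3-only protein, had a difference of -1.75 (adjusted p = 0.0206) and of -2.17 on its second probe set. On the first, the PR-A K388R response of 0.61 was not called. DPYSL2, which binds tubulin, had a difference of -1.62 (adjusted p = 0.0136), GREB1, an estrogen target, of -1.53 (adjusted p = 0.0277), and ACSL1, which activates long-chain fatty acids, of -1.0 (adjusted p = 0.0218). Their calls held in 3, 4, 2 and 1 of the 8 fits without 1 array, in this order. SRGN, a proteoglycan of secretory granules named here after its values were seen, differed most in level: its probe sets with differences of -2.18 and -1.80 had gaps of -5.60 and -6.47 with R5020 and of -3.42 and -4.67 with vehicle (PR-A K388R minus WT PR-A).

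Of 22 measured progestin targets, 6 had a called lower difference and 0 a higher one, with a median of -0.37 against 0.02 over all genes. Over all 8904 genes, each standing by its brightest probe set, 64 had a higher difference (0.719%) and 103 a lower one (1.16%). The list holds genes known to respond to progestins and was written with results of these arrays known. R5020 raised 10 of its members in PR-A K388R cells, beside 1.25% of all genes, and 15 in WT PR-A cells, beside 4.4% of all genes. The 6 were S100P, CEBPD and FOXO1, described above, and PDK4, DUSP1 and SLC7A5. DUSP1, a phosphatase of MAP kinases, read 6.17 and 6.44 with R5020 and 6.03 and 5.66 with vehicle in PR-A K388R cells, against 8.81 and 8.74 with R5020 and 6.79 and 7.01 with vehicle in WT PR-A cells. WT PR-A cells were higher in both conditions, more so with R5020 (-1.41, adjusted p = 0.0159, called in 4 of the 8 fits without 1 array), and its second probe set had -0.61, not called. PDK4, a kinase that inhibits pyruvate dehydrogenase and is one of the genes that the study names, read 5.09 and 4.92 with R5020 and 3.47 and 3.85 with vehicle in PR-A K388R cells, against 7.61 and 6.73 with R5020 and 3.80 and 4.18 with vehicle in WT PR-A cells. Its vehicle arrays in PR-A K388R cells were near the lower quartile. The difference was -1.84 (SE 0.38, adjusted p = 0.0492), and of the 8 fits without 1 array the call held only in that without WT PR-A R5020 replicate 2 (-2.39). Its second probe set, near the lower quartile, had a difference of -0.08. SLC7A5, a subunit of a transporter of large neutral amino acids, had a difference of -1.09 (adjusted p = 0.0497), also at the threshold, and its call held in 1 of the 8 fits.

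The other progestin targets had no called difference, and their intervals differ in width. SGK1, a serum and glucocorticoid-induced kinase, rose by 4.92 in PR-A K388R cells and by 4.31 in WT PR-A cells, with a difference of 0.62 and an interval of -0.23 to 1.47. HSD11B2, which inactivates cortisol, had a difference of -0.67 with an interval of -1.70 to 0.36, and KLF9, a zinc finger factor, one of -0.32 with an interval of -0.99 to 0.35. These intervals allow differences of 1.5-fold and more. NDRG1, a stress-responsive gene that the study names, read 9.51 and 8.94 with R5020 and 6.28 and 6.08 with vehicle in PR-A K388R cells, against 7.69 and 7.62 with R5020 and 6.07 and 6.28 with vehicle in WT PR-A cells. Both lines rose and PR-A K388R cells lay higher with R5020, but the difference of 1.56 (SE 0.33, interval 0.83 to 2.29) missed the threshold at adjusted p = 0.0516. It was called without PR-A K388R R5020 replicate 2 (1.92, adjusted p = 0.0411), with arrays centred on their medians, with an intensity trend, without the replicate number in the model and with the 8 arrays alone. Of the 7 measured genes that the study names from these samples, which are no independent evidence, 4 had a called lower difference. These were ANXA1, PDK4, CEBPD and ALDH1A3, an enzyme that makes retinoic acid (-1.60, SE 0.20, adjusted p = 0.00704), whose call held without any single array and whose second probe set had a difference of -0.54 that was not called.

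Of 4 measured metallothioneins 2 had a called lower difference, beside 1.16% of all genes. MT1H, a metallothionein, read 7.94 and 7.79 with R5020 and 7.70 and 7.83 with vehicle in PR-A K388R cells, against 10.09 and 9.89 with R5020 and 7.96 and 8.22 with vehicle in WT PR-A cells. Only the WT PR-A R5020 arrays were high, and the difference was -1.80 (SE 0.19, adjusted p = 0.00463). MT1X, another metallothionein, had responses of 0.35 in PR-A K388R cells and 1.92 in WT PR-A cells (-1.57, adjusted p = 0.00704). Metallothionein sequences are alike, so these probe sets may share signal. Among 24 solute carriers, called rises numbered 2 in PR-A K388R cells, beside 1.25% of all genes, and 10 in WT PR-A cells, beside 4.4% of all genes. The difference was called lower for 3 of the 24 (1.16% of all genes) and higher for 2 (0.719% of all genes). SLC22A5, the carnitine transporter, had a difference of -1.67 (adjusted p = 0.0107), which was lost without WT PR-A vehicle replicate 2 or PR-A K388R R5020 replicate 1 (adjusted p = 0.0562 and 0.0538). SLC2A1, the glucose transporter GLUT1, had one of -1.28 (adjusted p = 0.0212, called in 1 of the 8 fits), with -0.49 on a second probe set near the lower quartile that was not called. In the list of the unfolded protein response and ATF4, a rise was called for 0 of 21 genes in PR-A K388R cells, where responses reached 1.19, and for 8 in WT PR-A cells, beside the same shares of all genes. Of the 21 differences 1 was called, beside 1.88% of all genes, that of MANF, a factor secreted under endoplasmic reticulum stress (-0.98, adjusted p = 0.0150, called in 2 of the 8 fits without 1 array). The medians of the 2 arrays of each group were 9.75 and 9.71 with R5020 and 9.55 and 9.67 with vehicle in PR-A K388R cells, against 10.3 and 10.2 with R5020 and 9.49 and 9.69 with vehicle in WT PR-A cells. BNIP3, a mitochondrial protein of the hypoxia list, had lost its rise on both probe sets (-1.44 and -1.55). It was 1 of 2 called among 26 genes of that list, beside 1.88% of all genes.

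Lipid genes showed smaller differences. Of 24 genes of cholesterol and fatty acid synthesis, 3 had a called lower difference (1.16% of all genes) and 0 a higher one (0.719% of all genes). The median was -0.09. The 3 were ACSL1, DHCR7, the last enzyme of cholesterol synthesis (-0.81, adjusted p = 0.0491), and SCD, the stearoyl-CoA desaturase (-0.76, adjusted p = 0.0466). SREBF1, the transcription factor that drives fatty acid synthesis, was called on 1 of its probe sets (-1.06, adjusted p = 0.0138) and not on the other (-0.52). The calls of DHCR7 and SCD held in none of the 8 fits without 1 array. Of 23 estrogen targets 19 had a difference below 0, beside 4078 of all 8904 genes, with a median of -0.22, and 1 was called, that of GREB1, beside 1.88% of all genes.

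The largest differences among the genes near the lower quartile have uncertain sizes, because a group near background cannot show how far it fell. GJA1, the gap junction protein connexin 43, read 3.31 and 3.23 with R5020 and 2.88 and 3.12 with vehicle in PR-A K388R cells, against 6.20 and 5.88 with R5020 and 3.12 and 2.98 with vehicle in WT PR-A cells. It was well above background only on the WT PR-A R5020 arrays and somewhat above it in T47D-Y cells (4.19 and 4.50), with a difference of -2.72 (SE 0.22, adjusted p = 0.00197). ANXA1, a phospholipid-binding protein that glucocorticoids induce, read 3.95 and 3.30 with R5020 and 3.66 and 3.73 with vehicle in PR-A K388R cells, against 7.15 and 7.28 with R5020 and 4.61 and 4.85 with vehicle in WT PR-A cells. WT PR-A cells were higher in both conditions (difference -2.55, SE 0.28, adjusted p = 0.00463). SCIN, an actin-severing protein, had differences of -2.46 and -1.10 on its 2 probe sets, both near the lower quartile in PR-A K388R cells, and its call held in 2 of the 8 fits.

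Lost falls differed from lost rises in the condition where the lines stood apart. The difference of the responses is the gap between the lines with R5020 minus the gap with vehicle, so each can be split into these parts. Lost rises had a median gap, PR-A K388R minus WT PR-A, of -1.14 with R5020 and 0.10 with vehicle, and the gap was called with R5020 alone for 77 of the 116 and with vehicle alone for 14. Lost falls had a median gap of -0.03 with R5020 and -1.0 with vehicle, and it was called with R5020 alone for 7 of the 44 and with vehicle alone for 27. Over all probe sets the gap was called for 1302 (10.4%) with R5020 and 1077 (8.58%) with vehicle. These gaps are parts of the difference that chose the genes and were not tested again.

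The T47D-Y arrays, which enter the spread but not the difference, give the level of each line against cells without PR. The WT PR-A vehicle arrays are part of the difference that chose these genes. This favours high levels there in lost falls and low levels in lost rises, so the shares over all probe sets are no like comparison. In the 44 lost falls, PR-A K388R cells with vehicle were within 1.5-fold of T47D-Y for 33 and WT PR-A cells with vehicle for 18, beside 94.8% and 90.9% over all probe sets. WT PR-A cells with vehicle lay at least 1.5-fold above T47D-Y for 26 of the 44 and below for 0, beside 4.93% and 4.18% over all probe sets. The medians against T47D-Y were -0.20 with R5020 and -0.12 with vehicle in PR-A K388R cells, against -0.13 with R5020 and 0.95 with vehicle in WT PR-A cells. In the 116 lost rises the medians were 0.12 with R5020 and 0.02 with vehicle in PR-A K388R cells, against 1.29 with R5020 and -0.07 with vehicle in WT PR-A cells. There WT PR-A cells with vehicle were within 1.5-fold of T47D-Y for 78, above for 9 and below for 29. None of these counts was tested. T47D-Y was not treated with R5020 in the samples analysed here.

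**Figure D3:**
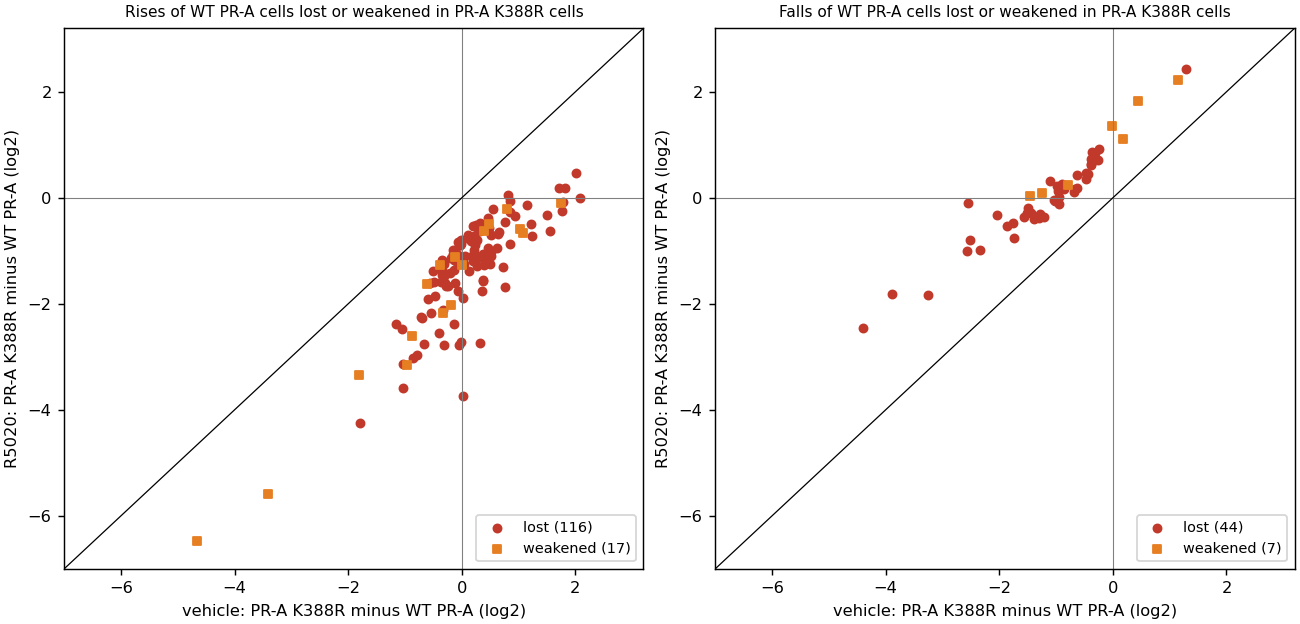
Gap between the lines (log2, PR-A K388R minus WT PR-A) with R5020 (vertical) against vehicle (horizontal) for the rises (left) and falls (right) of WT PR-A cells that were lost or weakened, with equal gaps on the diagonal. Lost rises spread downwards with a median of -1.14 with R5020 and 0.10 with vehicle, and lost falls spread to the left with medians of -0.03 with R5020 and -1.0 with vehicle.

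The 14 lost rises whose lines differed with vehicle alone include ABCA1, SLPI and ATP6V1C2, which were named after their values were seen. ABCA1, the cholesterol exporter, read 6.17 and 6.25 with R5020 and 6.37 and 6.48 with vehicle in PR-A K388R cells, against 6.34 and 6.23 with R5020 and 4.88 and 4.42 with vehicle in WT PR-A cells. Only the WT PR-A vehicle arrays were low, and T47D-Y cells, at 6.92 and 7.29, lay above all groups (difference -1.85, SE 0.24, adjusted p = 0.00765). A second ABCA1 probe set was called too (-2.08) and the third, near the lower quartile, was not (-0.29). SLPI, a secreted inhibitor of proteases, read 12.69 and 12.63 with R5020 and 12.43 and 12.63 with vehicle in PR-A K388R cells, against 12.39 and 12.001 with R5020 and 10.53 and 10.50 with vehicle in WT PR-A cells. Here the T47D-Y arrays, at 10.83 and 11.12, lay closer to WT PR-A cells with vehicle (difference -1.55, adjusted p = 0.0124). ATP6V1C2, a subunit of the vacuolar proton pump, had differences of -1.62 and -1.53 on its 2 probe sets and gaps with vehicle of 1.81 and 1.72.

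ITGA5, the integrin alpha 5 subunit, and C3orf52 show lost falls. ITGA5 read 6.78 and 6.73 with R5020 and 6.91 and 6.97 with vehicle in PR-A K388R cells, against 6.59 and 6.65 with R5020 and 7.89 and 7.94 with vehicle in WT PR-A cells. T47D-Y cells read 6.73 and 6.62. Only the WT PR-A vehicle arrays stood apart, and the difference was 1.11 (SE 0.15, adjusted p = 0.00950), lost without WT PR-A vehicle replicate 2 or PR-A K388R R5020 replicate 1 (adjusted p = 0.0550 and 0.0536). C3orf52 read 4.56 and 4.81 with R5020 and 4.76 and 4.76 with vehicle in PR-A K388R cells, against 5.27 and 5.17 with R5020 and 6.65 and 6.61 with vehicle in WT PR-A cells. WT PR-A cells were higher in both conditions, most with vehicle (1.34, SE 0.17, adjusted p = 0.00723), and this call held without any single array. GPRC5B, an orphan G protein-coupled receptor, had a difference of 1.42 (adjusted p = 0.0124, called in 6 of the 8 fits), while its second probe set had -0.08.

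Further lost falls, those of WT1, SYT1, GUCY1A2 and GEM, had wider gaps with vehicle and calls that held in 2 of the 8 fits without 1 array. WT1, a zinc finger transcription factor, read 4.42 and 3.62 with R5020 and 4.0 and 3.99 with vehicle in PR-A K388R cells, against 6.51 and 6.45 with R5020 and 8.13 and 8.67 with vehicle in WT PR-A cells. PR-A K388R cells were low in both conditions, with little room for a fall, and the difference was 1.95 (SE 0.36, adjusted p = 0.0351). SYT1, synaptotagmin, had differences of 1.57 and 1.73 on both probe sets. GUCY1A2, a subunit of soluble guanylate cyclase, had one of 1.42 (adjusted p = 0.0258) and GEM, a small GTPase, one of 1.36 (adjusted p = 0.0201). FRY, set aside as near the lower quartile, read 3.30 and 3.69 with R5020 and 3.53 and 3.50 with vehicle in PR-A K388R cells, against 3.50 and 3.70 with R5020 and 6.44 and 5.70 with vehicle in WT PR-A cells. It was above background only on the WT PR-A vehicle arrays (2.45, SE 0.32, adjusted p = 0.00723), and its call held in every fit. Its second probe set had a difference of 0.16 that was not called. HNMT, which inactivates histamine, was likewise near it in PR-A K388R cells (2.07, adjusted p = 0.0475, called in 2 of the 8 fits).

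Weakened falls were smaller in PR-A K388R cells either because the lines differed with R5020 or because they differed with vehicle. HDAC9, a class IIa histone deacetylase, read 6.18 and 6.34 with R5020 and 7.90 and 7.69 with vehicle in PR-A K388R cells, against 4.31 and 4.54 with R5020 and 7.39 and 7.30 with vehicle in WT PR-A cells. Both lines fell, and they stood apart mostly with R5020, where WT PR-A cells were lower (difference 1.39, SE 0.19, adjusted p = 0.00950). Its other 2 probe sets were near the lower quartile and had no called difference, and the call was lost without WT PR-A vehicle replicate 1 (adjusted p = 0.0565). SOX11, a transcription factor of neural development, read 5.22 and 5.07 with R5020 and 5.97 and 6.04 with vehicle in PR-A K388R cells, against 5.19 and 5.05 with R5020 and 7.33 and 7.58 with vehicle in WT PR-A cells. The lines met with R5020 and were apart with vehicle, the reverse of HDAC9 (1.48, SE 0.18, adjusted p = 0.00663, with 1.34 on a second called probe set). SEMA3C, a secreted semaphorin, had a difference of 1.07 (adjusted p = 0.0402). FGFR2, a fibroblast growth factor receptor, had one of 1.03 (adjusted p = 0.0268) and a PR-A K388R response of -0.61 that was not called. SLFN5 had a difference of 1.37 (adjusted p = 0.0219) and a PR-A K388R response of -0.71 that was not called. The second probe sets of SEMA3C, FGFR2 and SLFN5 had differences of 0.82, 0.88 and 1.38, which were not called. TCL1B had a difference of 0.93 (adjusted p = 0.0263). Of these only the call of SOX11 held in every fit without 1 array. The calls of SEMA3C and FGFR2 held in 1 of the 8 fits, that of SLFN5 in 2 and that of TCL1B in 0.

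**Figure D4:**
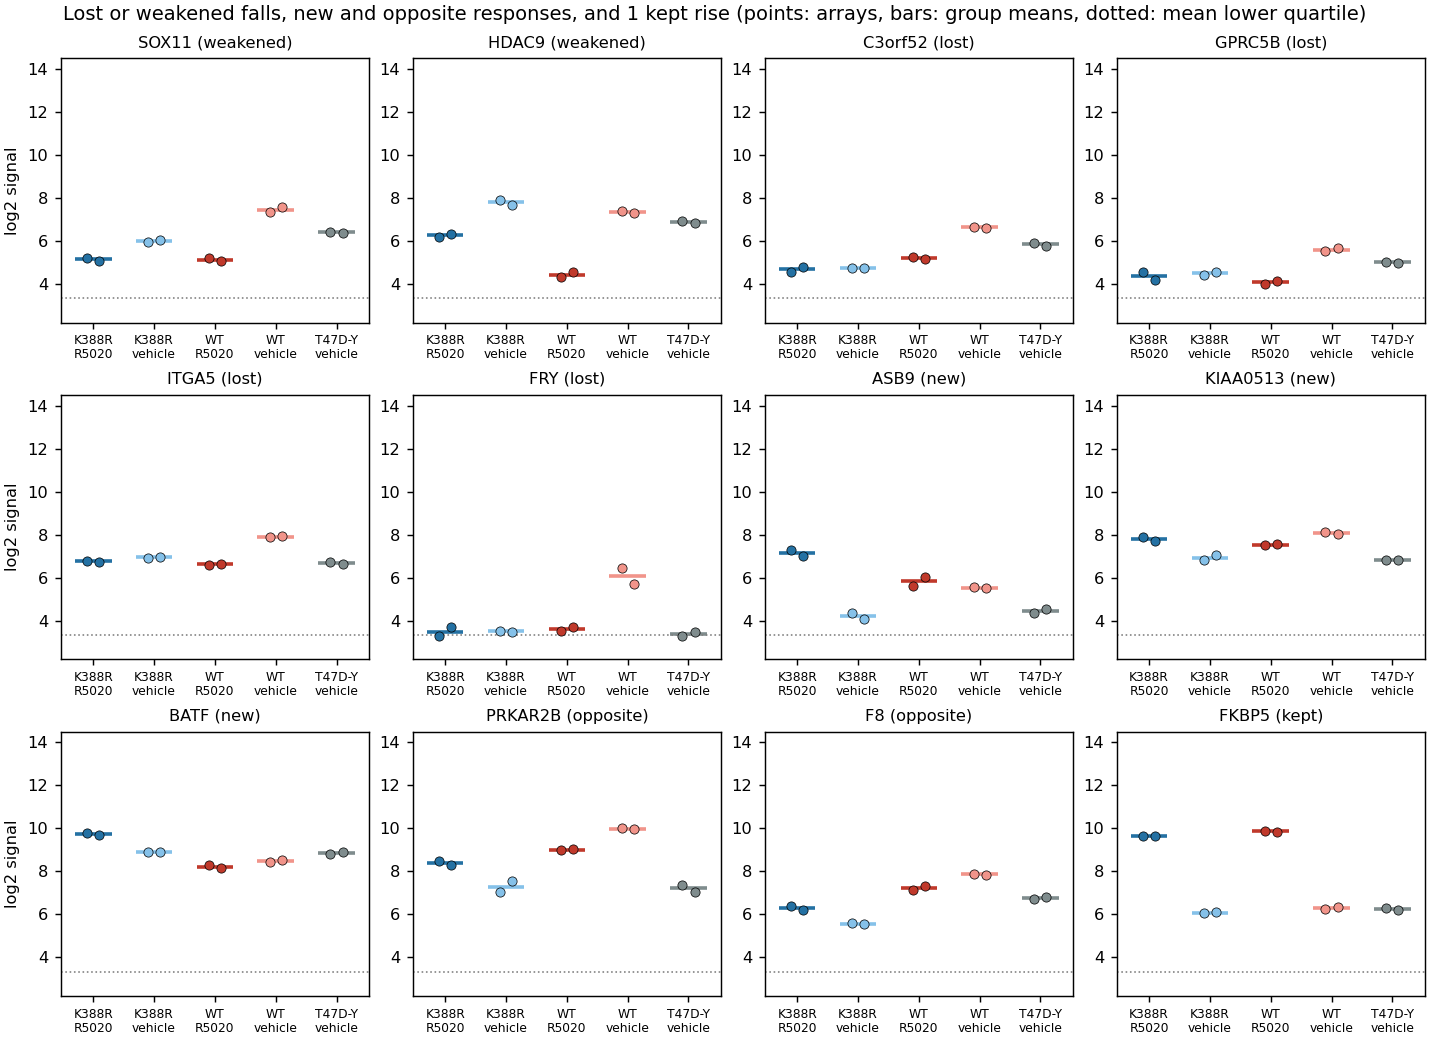
Log2 signal on each array for 6 lost or weakened falls, 3 new rises, 2 responses of opposite sign and 1 kept rise, with points for arrays, bars for group means and a dotted line at the mean lower quartile (3.34). ITGA5, FRY and C3orf52 are highest on the WT PR-A vehicle arrays, ASB9 on the PR-A K388R R5020 arrays, and FKBP5 on the R5020 arrays of both lines.

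New rises were few, and ASB9 had the largest. ASB9, a substrate adaptor of ubiquitin ligases, read 7.28 and 7.03 with R5020 and 4.35 and 4.06 with vehicle in PR-A K388R cells, against 5.63 and 6.03 with R5020 and 5.55 and 5.51 with vehicle in WT PR-A cells. PR-A K388R cells lay above WT PR-A cells with R5020 and below them with vehicle, where they were close to T47D-Y (4.35 and 4.54). The difference was 2.65 (SE 0.24, adjusted p = 0.00197), and its call held without any single array. KIAA0513 read 7.88 and 7.69 with R5020 and 6.81 and 7.04 with vehicle in PR-A K388R cells, against 7.53 and 7.54 with R5020 and 8.10 and 8.04 with vehicle in WT PR-A cells. The PR-A K388R arrays rose and the WT PR-A arrays were lower with R5020 by 0.54, under 1.5-fold (difference 1.40, SE 0.17, adjusted p = 0.00704, with 0.45 on a second probe set that was not called). BATF, a basic leucine zipper factor, read 9.78 and 9.68 with R5020 and 8.91 and 8.91 with vehicle in PR-A K388R cells, against 8.28 and 8.17 with R5020 and 8.43 and 8.54 with vehicle in WT PR-A cells. Its PR-A K388R R5020 arrays were the highest (1.08, SE 0.16, adjusted p = 0.0136, called in 4 of the 8 fits).

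The other new rises had adjusted p-values closer to the threshold. PGC, pepsinogen C, had a difference of 1.30 (adjusted p = 0.0488) on 1 of its 2 probe sets. RAPGEF5 had one of 1.08 (adjusted p = 0.0475) on 1 of its 4. Its PR-A K388R means stayed below those of WT PR-A cells, at 7.15 against 8.05 with R5020 and 6.21 against 8.18 with vehicle. RRM2, a subunit of ribonucleotide reductase, had a difference of 0.98 (adjusted p = 0.0431). Its gap between the lines was called with vehicle (-0.59, PR-A K388R minus WT PR-A) and not with R5020 (0.39). NDC80, a kinetochore protein, had a difference of 0.87 (adjusted p = 0.0363) and CDK1, the kinase of mitotic entry, one of 0.83 (adjusted p = 0.0336) on 1 of its 2 probe sets. Each of these 5 calls held in at most 1 of the 8 fits. FXYD3, a regulator of the sodium pump (0.98), and NGFR, a neurotrophin receptor near the lower quartile (1.29), complete the 10 and were named after their values were seen. The 1 stronger rise was that of SLC26A3, a chloride and bicarbonate exchanger, which read 7.85 and 6.75 with R5020 and 2.98 and 3.01 with vehicle in PR-A K388R cells, against 4.43 and 5.32 with R5020 and 2.94 and 3.03 with vehicle in WT PR-A cells. Its vehicle arrays lay under the lower quartile in both lines, its R5020 arrays did not overlap (2.41, SE 0.48, adjusted p = 0.0455), and the call held in 2 of the 8 fits. The 1 new fall was CYP1B1, which oxidises estrogens (-1.13, adjusted p = 0.0395, called in 1 of the 8 fits without 1 array). A second of its 4 probe sets was called too (-1.27).

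PRKAR2B and F8 changed in opposite directions in both lines. PRKAR2B, a regulatory subunit of protein kinase A, read 8.48 and 8.31 with R5020 and 7.03 and 7.53 with vehicle in PR-A K388R cells, against 8.98 and 9.03 with R5020 and 10.02 and 9.95 with vehicle in WT PR-A cells. It rose by 1.12 in PR-A K388R cells (adjusted p = 0.0148) and fell by 0.98 in WT PR-A cells (adjusted p = 0.00624), so that the gap between the lines was smaller with R5020 (difference 2.10, SE 0.25, adjusted p = 0.00568). F8, coagulation factor VIII, read 6.40 and 6.21 with R5020 and 5.58 and 5.54 with vehicle in PR-A K388R cells, against 7.15 and 7.34 with R5020 and 7.88 and 7.84 with vehicle in WT PR-A cells. It also moved towards the level of the other line (1.36, SE 0.17, adjusted p = 0.00704). Both calls held without any single array. Among 16 unsorted differences were MAP3K5, a stress-activated kinase (1.42, adjusted p = 0.0431), BDKRB2, a bradykinin receptor (-1.14, adjusted p = 0.0277), EGR1, an immediate-early factor (0.75, adjusted p = 0.0491, with -0.01 on its second probe set), and PIAS3, a SUMO ligase (0.84, adjusted p = 0.0475). The calls of MAP3K5 and BDKRB2 held in 1 of the 8 fits without 1 array, and those of EGR1 and PIAS3 in 0. A second MAP3K5 probe set had a difference of 1.28 that was not called.

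Kept responses, called in the same direction in both lines with an interval of the difference within 1.5-fold, were 14 rises and 7 falls. FKBP5, a co-chaperone of steroid receptors, read 9.66 and 9.62 with R5020 and 6.04 and 6.12 with vehicle in PR-A K388R cells, against 9.87 and 9.85 with R5020 and 6.27 and 6.37 with vehicle in WT PR-A cells. It rose by 3.56 in PR-A K388R cells and by 3.54 in WT PR-A cells, and the difference was 0.02 with an interval of -0.32 to 0.37. PRKAB2, a subunit of AMP-activated kinase, rose by 2.00 in PR-A K388R cells and by 1.99 in WT PR-A cells (difference 0.01, interval -0.46 to 0.48). ULK2, an autophagy kinase, had a difference of -0.13, CPT2, which carries fatty acids into mitochondrial oxidation, one of -0.04, and NEBL, the actin-binding nebulette, one of 0.02. ATXN1 fell in both lines, by 0.93 in PR-A K388R cells and by 1.0 in WT PR-A cells. The other probe sets of ULK2 had differences of 0.61 and 0.54, which were not called, so that kept holds for 1 of its 3.

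Genes of the cell cycle had small differences of one sign with few calls. Of 36 DNA replication genes 35 had a difference above 0, with medians of 0.45 for the difference, 0.26 for the PR-A K388R response and -0.15 for the WT PR-A response, and 1 was called (RRM2). Of 27 genes of mitosis and the spindle 26 were above 0, with medians of 0.54 for the difference, 0.45 for the PR-A K388R response and -0.13 for the WT PR-A response, and 1 was called (NDC80). Over all 8904 genes 4826 were above 0, the median was 0.02, and 167 (1.88%) were called. With R5020, CDC45, E2F1 and RRM2 of the first list and ESPL1, PLK1 and NDC80 of the second rose in PR-A K388R cells, whereas the WT PR-A response was called for 0 of either list. Of these, CDC45, E2F1, ESPL1 and PLK1 were named after their values were seen, and their difference was not called. The medians of the mitosis list were 9.78 and 9.95 with R5020 and 9.37 and 9.42 with vehicle on the PR-A K388R arrays, against 9.59 and 9.57 with R5020 and 9.77 and 9.66 with vehicle on the WT PR-A arrays. The groups of each line did not overlap in this median. For the DNA replication list it was 9.47 and 9.60 with R5020 and 9.38 and 9.32 with vehicle on the PR-A K388R arrays. On the WT PR-A arrays it was 9.05 and 9.28 with R5020 and 9.29 and 9.25 with vehicle, so there the groups overlapped.

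Interferon-stimulated genes had a large median difference and 0 calls in 23 genes, beside 1.88% of all genes. The median was 0.93, with responses of -0.12 in PR-A K388R cells and -1.14 in WT PR-A cells. The difference was above 0 for 21 of the 23. Arrays of the same group differed widely. The median of the list was 6.87 and 5.70 with R5020 and 7.03 and 5.81 with vehicle in PR-A K388R cells, against 7.13 and 8.98 with R5020 and 8.62 and 9.84 with vehicle in WT PR-A cells. The 2 arrays of a group differed in this median by 1 or more, with replicate 1 higher in both conditions of PR-A K388R cells and replicate 2 higher in both of WT PR-A cells. Between arrays of the same number, R5020 minus vehicle was -0.16 and -0.11 in PR-A K388R cells, against -1.50 and -0.85 in WT PR-A cells. These numbers may not pair the arrays, and without them the R5020 and vehicle arrays overlapped in each line. Because replicate differences in the deposited values add up to 0 across the 5 groups, a higher replicate 1 in some groups goes with a higher replicate 2 in others. A smaller or larger response of this list was therefore not decided. Of 15 luminal lineage genes 1 was called, beside 1.88% of all genes. This was TFAP2A, an AP-2 transcription factor whose fall was lost on both of its probe sets (0.97 and 0.79). The call of TFAP2A held in 1 of the 8 fits without 1 array. The luminal list had a median of 0.13.

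Other lists had few called members on either side, to be read beside 0.719% of all genes called higher and 1.16% called lower. Of 53 growth factors, cytokines and their receptors, 3 had a called higher difference and 1 a lower one. The 4 were SEMA3C and FGFR2, described above, and both chains of platelet-derived growth factor. PDGFB read 5.60 and 5.69 with R5020 and 5.85 and 5.77 with vehicle in PR-A K388R cells, against 5.72 and 5.81 with R5020 and 6.72 and 6.8 with vehicle in WT PR-A cells. PDGFA read 6.99 and 7.16 with R5020 and 7.20 and 7.03 with vehicle in PR-A K388R cells, against 7.13 and 7.13 with R5020 and 6.26 and 6.27 with vehicle in WT PR-A cells. In both genes only the WT PR-A vehicle arrays stood apart, high for PDGFB (0.83, adjusted p = 0.0455) and low for PDGFA (-0.91, adjusted p = 0.0308), and both calls held in 0 of the 8 fits without 1 array. Among 25 genes of the SUMO pathway and of nuclear receptor coregulators, 2 were called higher (PIAS3 and HDAC9) and 0 lower. Among 34 actin-binding and cytoskeletal genes 1 was higher and 2 were lower (SCIN and CORO2A). The higher one was PDLIM7 (1.03 on 1 of its 4 probe sets, called in 1 of the 8 fits without 1 array). ITGA5 was the only call among 44 adhesion genes and ASB9 among 18 ubiquitin ligase adaptors.

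**Figure D5:**
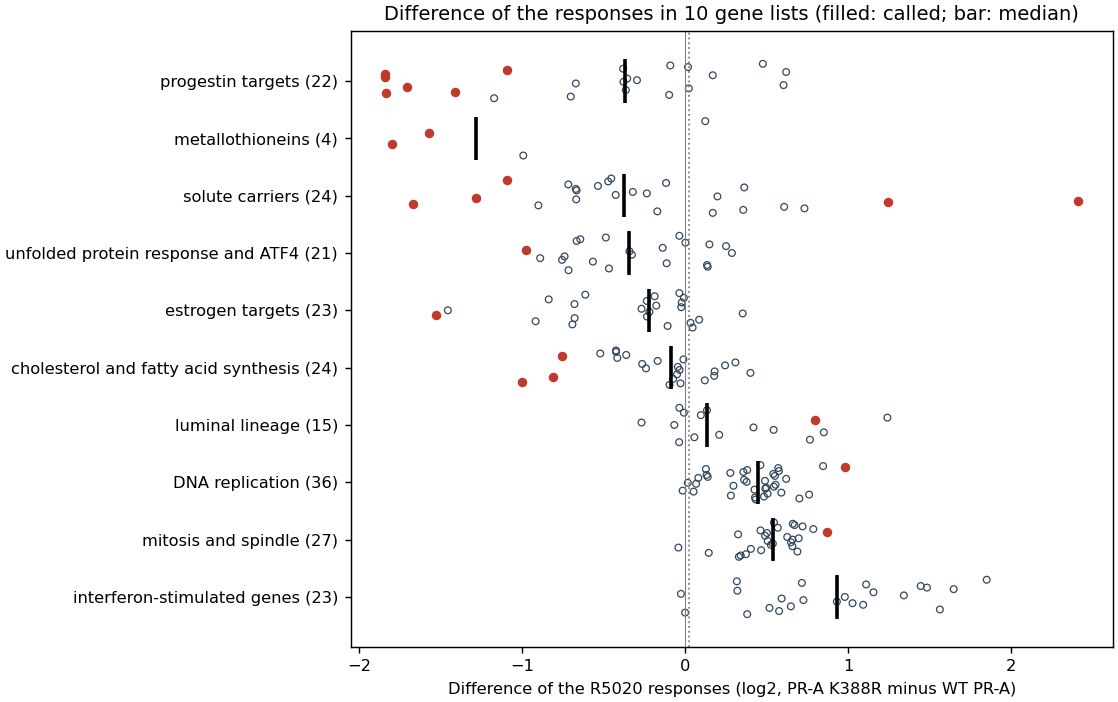
Difference of the R5020 responses (log2, PR-A K388R minus WT PR-A) for each measured gene of 10 lists, with filled points for called differences, a bar at the median of each list and a dotted line at the median of all genes (0.02). The medians run from -1.28 for 4 metallothioneins to 0.93 for 23 interferon-stimulated genes, which hold no called difference.

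Genes with several probe sets allow a comparison of their probe sets, which read the same RNA on the same arrays. Of 191 genes with a called difference, 87 had more than 1 probe set. All probe sets had the same sign in 76 of these, at least 2 were called in 23, and all were called in 14. In the other 11 at least 1 probe set had the other sign, as for GPRC5B (-0.08), EGR1 (-0.01) and HNMT (-0.17). The called probe set is itself counted here. The same shares over all genes with several probe sets were not computed, so these counts have no background beside them.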

How the data were processed

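RNA of 10 arrays in 5 groups was used. The log2 values per probe set were normalized by the authors in Partek before they were deposited. The normalization method, background correction and summary over probes are not given in the sources used here. Part of the array, 16376 probe sets, was used: 12547 have 1 gene symbol in the platform table, 457 several and 3372 none, and 12528 match a RefSeq gene. The labels and the study's methods name different culture media and RNA kits. In each probe set the differences between replicate 2 and replicate 1 added up to 0 across the 5 groups (at most 0.0003 off), so the replicate number had been removed beforehand. The main model in limma 3.58.1 (R 4.3.3) therefore held 5 group means and the replicate number as a block (4 residual and 5.62 prior degrees of freedom), with all 10 arrays and Benjamini-Hochberg adjustment over all 16376 probe sets. Because of this removal a check for pairing is void. Alternatives were the model without the block, unmoderated contrasts, an intensity trend, quantile normalization, centring, a filter on the 40% of probe sets with the lowest means, a threshold of 2-fold, 8 arrays, distinct genes, other margins over the lower quartile and leaving out each array.

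Named genes were up to 6 with the largest difference per class and direction outside the margin of the lower quartile, up to 3 set-aside genes per direction, up to 6 kept responses, the genes that the study names, progestin targets and up to 4 called members of each other list. A gene stands by its probe set with the smallest adjusted p, and in list counts by the one with the highest mean. The comparison, its members and the gene lists were chosen with earlier results of these data known. Figures were drawn in Python 3.11.15 with matplotlib 3.10.9.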

Additional observations from a re-analysis of the deposited data

Results flagged for a closer look

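The difference of the R5020 responses is itself a test of whether an effect differs between both lines, so every called difference meets the criterion, 75 with a larger and 139 with a smaller value in PR-A K388R cells. The largest of each class were -3.78 for FCGR3B (lost rise), 2.45 for FRY (lost fall), -2.20 for TRAF5 (weakened rise), 1.48 for SOX11 (weakened fall), 2.41 for SLC26A3 (stronger rise), 2.65 for ASB9 (new rise) and -1.13 for CYP1B1 (new fall). PRKAR2B (2.10) and F8 (1.36) had responses of opposite sign, and MAP3K5 (1.42) and BDKRB2 (-1.14) were unsorted. The second called probe set of CYP1B1 (-1.27) was unsorted too. FRY and SLC26A3 were near the lower quartile in at least 1 group, where the size of a difference is uncertain. Groups of 2 arrays are too small for a test of single arrays.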

How the results depend on the processing

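The main model, with the replicate block, called 75 higher and 139 lower differences, with 160 lost, 24 weakened, 1 stronger, 11 new and 2 opposite responses and 27 near the lower quartile. With no replicate block these were 218, 251, 300, 43, 3, 31, 3 and 54, and all 214 main calls were among them. With unmoderated contrasts each count was 0 (smallest adjusted p = 0.0628, and 612 at an unadjusted p under 0.05 and 1.5-fold). An intensity trend gave 175 higher, 220 lower, 270 lost, 41 weakened, 3 stronger and 26 new. Stronger responses were 2 with quantile normalization and 2 with arrays centred on their medians. Without the 40% dimmest probe sets 8 calls were near the lower quartile, and with a margin of 1 over it 43. A 2-fold threshold gave 45 higher, 8 weakened, 4 new and 0 opposite. The 8 arrays alone gave 46 higher, 93 lower, 6 new and 17 near the lower quartile, and 82 of the 214 main calls were not among them. Counted by distinct genes, 7 were new. Leaving out 1 array gave 16 to 56 higher and 42 to 89 lower, 44 to 113 lost, 8 to 20 weakened, 0 to 2 stronger, 1 to 7 new, 2 to 7 opposite and 11 to 24 near the lower quartile, and the lone array left in a group was taken to vary like the others. The totals were 61 and 83 without PR-A K388R R5020 replicate 1 and 2, 78 and 95 without PR-A K388R vehicle replicate 1 and 2, 111 and 145 without WT PR-A R5020 replicate 1 and 2, and 66 and 67 without WT PR-A vehicle replicate 1 and 2. Of the 75 named genes with a called difference, 14 were called in none of these fits, and 0 changed sign in any setting run. Of the 23 named genes without a called difference 10 changed sign in at least 1 setting, among them the kept FKBP5, PRKAB2, NEBL, CPT2 and ATXN1, whose differences were close to 0. Signal near background limits the size of differences in dim probe sets.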
